A study of Mus musculus with 4 samples.

Results

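The library from mouse prelimbic cortex given AAV-GFP was compared with the library from control mice, 2 of the 4 libraries of the series. The comparison crosses 2 tables that the authors scaled separately, so the genes listed in both were joined by their Ensembl identifier: 8539 genes, or 69.3% of the 12318 in the stress table and 55.5% of the 15396 in the AAV table. The prelimbic cortex is a medial prefrontal area. All mice were C57BL/6 and 8 weeks old. The control library is the reference of a social defeat experiment, in which mice are attacked repeatedly by an aggressor; its partner is a susceptible library. The labels give the control a stress tag too, so they do not show that it was untreated. The AAV-GFP library comes from mice given an adeno-associated virus that carries green fluorescent protein; its partner is an AAV-CDYL library, made with the chromatin corepressor CDYL. The labels name no promoter, serotype, dose or time after injection, do not say whether a library is 1 mouse or a pool, and name no stress for the AAV mice. Both libraries are references for their own pair, and experiment, virus, surgery and any difference in handling cannot be told apart.

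AAV-GFP is the usual control for the effect of injecting a virus and making a foreign protein. Adeno-associated virus particles and their DNA can be sensed by innate immune receptors, which act through interferons, and an injection needle injures tissue, to which astrocytes respond with Gfap and microglia with complement and lysosomal genes. Neutrophils, short-lived white blood cells, carry S100a8 and S100a9 and store Lcn2 and Ltf in granules. Metallothioneins bind zinc and copper and are raised by metals, by glucocorticoids and in acute-phase responses. Immediate early genes follow neuronal activity within minutes.

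With 1 library a group there is no replicate check, and no test or p-value was computed. Each table holds only genes whose own pair lies at least 0.32 apart on the log2 scale, so a joined gene also differs between control and susceptible and between AAV-GFP and AAV-CDYL. Genes at 0 in 1 library of a pair have no finite log2 difference and were left out of that smallest value. An absent gene is not thereby alike in the libraries. Values are in FPKM, which corrects fragment numbers for transcript length and library size. In the 1552 genes with at least 5 FPKM on both sides the median log2 ratio of AAV-GFP to control was -0.0055, a ratio of 0.996, and all differences are centred on it. FPKM values are printed as deposited. The size rule asks for a 1.5-fold difference in centred FPKM + 1, and was applied to the 3091 genes that reach 1 FPKM in control or AAV-GFP. Effective depth, read from the steps between low values, was 14300000 fragments for control and 22900000 for AAV-GFP. In bulk tissue, fewer cells of a type and less RNA per cell cannot be told apart.

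Among the 1552 genes used for centring, a filter that leaves out genes low on either side, most lay close between control and AAV-GFP. Of these, 76.8% had a log2 ratio within 0.32 of the centre, 92.1% lay within 1.5-fold, and 2.26% at 2-fold or beyond. The quartiles of the centred log2 ratios were -0.16 and 0.15. By the size rule AAV-GFP was higher for 196 genes, which is 6.34% of the 3091, and lower for 202 genes, 6.54%. The share in either direction was 12.9%, against 30.2% for susceptible over control and 48.9% for AAV-CDYL over AAV-GFP in the same genes. The last pair of shares is raised by the listing rule, which keeps only genes apart in those pairs, so the 3 shares are not on equal terms. The listing rule can raise the 12.9% too, because a control or AAV-GFP value off its usual level also sets its own pair apart. The size of that effect was not tested. The calls between AAV-GFP and control also followed the directions in which genes were listed. Among 279 genes with susceptible above control and AAV-CDYL below AAV-GFP, 36.2% passed, 99 higher and 2 lower, with a median of 0.40. Among 350 genes with the reverse directions, 33.7% passed, 5 higher and 113 lower, with a median of -0.38. The share was 9.68% of 1229 genes with both partners above (median 0.12) and 4.87% of 1233 with both below (median -0.04). These comparisons share the control and AAV-GFP libraries, so the classes are not independent of the difference they are set beside. Centring on genes that are higher in both partner libraries moved the split to 149 higher and 264 lower.

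**Figure D1:**
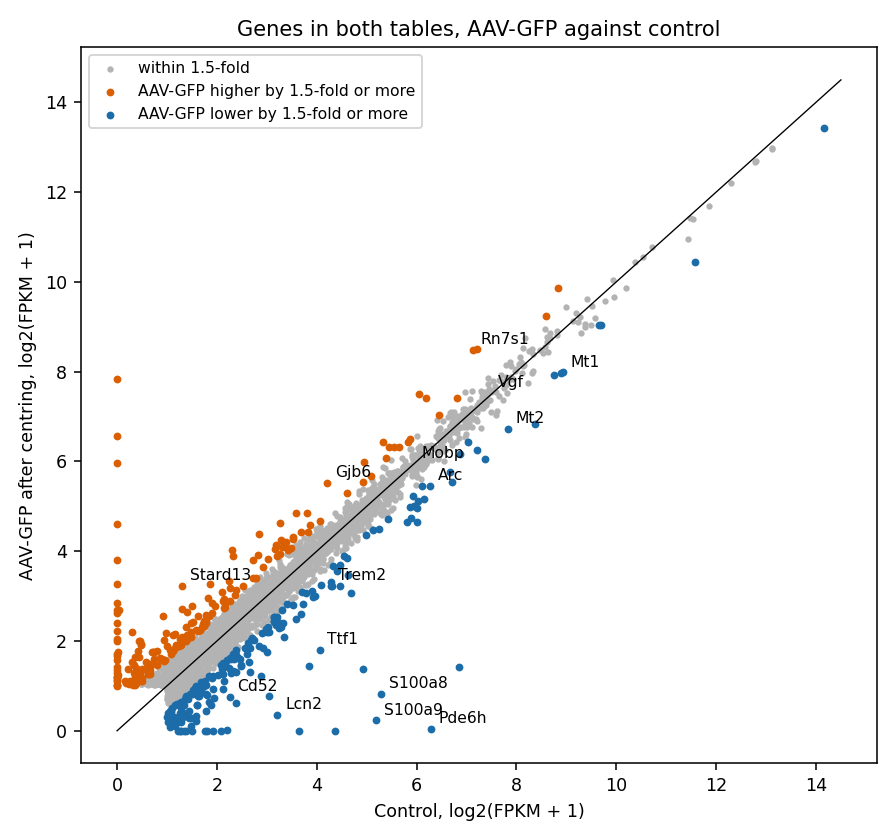
Each point is 1 of 3091 genes, by log2(FPKM + 1) in control (x axis) and in AAV-GFP after centring (y axis); the line marks equal levels. Orange points are the 196 genes higher and blue points the 202 lower by at least 1.5-fold, and S100a8, S100a9 and Lcn2 lie far below the line.

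The spread between the libraries is given beside that from counting fragments alone. The observed spread holds all differences between separate samples and experiments, and any effect of the listing rule. Among the 412 genes with a mean of 20 to 50 FPKM the interquartile range of the log2 ratio was 0.260, against 0.0610 from counting. Among the 592 genes with a mean of 1 to 2 FPKM these were 0.713 and 0.353. The share of genes past the size rule was 14.7% at 1 to 2 FPKM, 5.34% at 20 to 50 FPKM, 9.15% at 50 to 100 FPKM and 10.8% at 100 FPKM or more, where the interquartile range was 0.298 and 0.292 in the last pair of classes. Short transcripts differed more often. Over genes at 5 FPKM or more in both, split into 4 equal classes by longest annotated transcript, 14.51% of those up to 1.96 kb passed the rule, and 1.55% of those of 5.48 kb or more. The median ratio stayed between -0.02 and 0.02 in all 4 classes. By class, 9.17% of 2562 protein-coding genes passed, 32.6% of 89 long intergenic RNAs and 34.5% of 238 pseudogenes, whose reads can be shared with their parent genes.

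**Figure D2:**
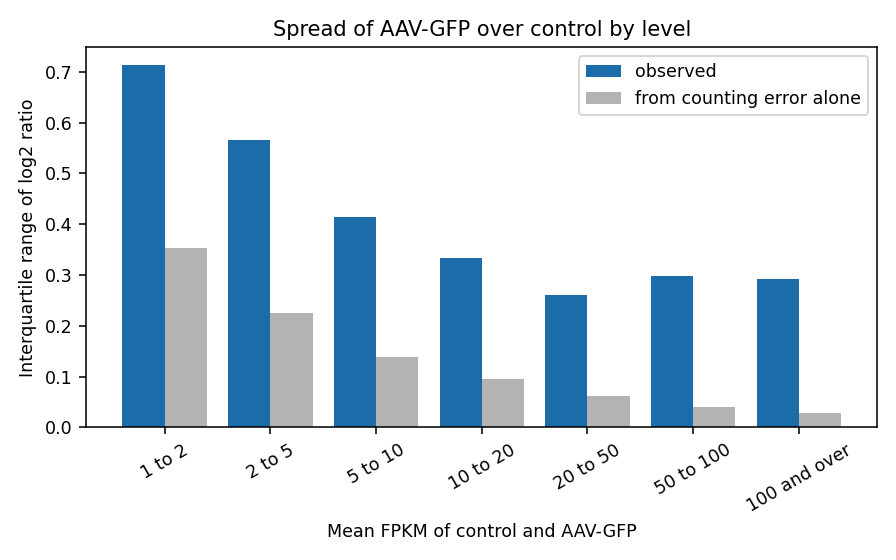
Bars give the interquartile range of the log2 ratio of AAV-GFP to control (y axis) by mean FPKM of both libraries (x axis), as observed in blue and as counting error alone would give in grey. The observed range falls from 0.713 at 1 to 2 FPKM to 0.260 at 20 to 50 FPKM and is 0.292 at 100 FPKM or more.

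S100a8 and S100a9, abundant in neutrophils, were present in both libraries of the social defeat experiment and below 2 FPKM in both AAV libraries, while other neutrophil genes varied in the AAV-CDYL library. They encode the calprotectin subunits, which are calcium-binding proteins. Lcn2 encodes lipocalin 2, an iron-carrier binding protein. The upstream 250 bases of these genes, and of the metallothionein genes described further on, are shown because S100a8 and S100a9, and Mt1 and Mt2, are neighbouring genes with shared patterns over the libraries (RefSeq start sites, build GRCm38.p6). In the first 3, capitals mark a TATA box (TATAAA) or the core of a C/EBP site (TTGCNNAA), both searched on both strands. In Mt1 and Mt2, capitals mark the metal response element core (TGCNCNC), also searched on both strands.
S100a8 (chr3:90668821-90669070, plus strand): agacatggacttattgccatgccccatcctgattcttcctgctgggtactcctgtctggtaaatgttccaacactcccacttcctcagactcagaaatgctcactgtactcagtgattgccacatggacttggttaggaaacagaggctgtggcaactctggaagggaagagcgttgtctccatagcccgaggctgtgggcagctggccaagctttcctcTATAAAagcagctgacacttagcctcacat
S100a9 (chr3:90695722-90695971, minus strand): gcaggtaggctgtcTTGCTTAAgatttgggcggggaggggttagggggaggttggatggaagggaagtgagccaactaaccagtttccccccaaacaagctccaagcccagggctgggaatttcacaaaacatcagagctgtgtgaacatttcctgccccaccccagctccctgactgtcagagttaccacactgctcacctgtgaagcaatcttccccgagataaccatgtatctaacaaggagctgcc
Lcn2 (chr2:32387740-32387989, minus strand): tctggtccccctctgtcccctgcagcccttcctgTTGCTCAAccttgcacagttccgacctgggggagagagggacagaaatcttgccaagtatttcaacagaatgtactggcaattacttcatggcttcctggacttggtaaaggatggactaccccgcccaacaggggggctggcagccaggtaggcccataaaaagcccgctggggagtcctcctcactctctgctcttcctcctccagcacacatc
Mt1 (chr8:94178839-94179088, plus strand): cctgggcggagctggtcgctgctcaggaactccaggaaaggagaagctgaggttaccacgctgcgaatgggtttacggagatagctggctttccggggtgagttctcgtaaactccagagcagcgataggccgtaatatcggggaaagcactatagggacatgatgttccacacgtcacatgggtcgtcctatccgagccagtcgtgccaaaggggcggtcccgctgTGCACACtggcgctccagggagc
Mt2 (chr8:94172368-94172617, plus strand): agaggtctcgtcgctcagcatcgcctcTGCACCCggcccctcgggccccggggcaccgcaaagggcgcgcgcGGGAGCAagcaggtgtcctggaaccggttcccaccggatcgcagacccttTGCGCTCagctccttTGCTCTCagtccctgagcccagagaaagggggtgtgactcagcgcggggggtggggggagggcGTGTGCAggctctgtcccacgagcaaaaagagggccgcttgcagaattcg

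S100a8 holds 1 TATA box and no C/EBP core match, while S100a9 and Lcn2 hold 1 C/EBP core match each and no TATA box with these letters. Of 32817 upstream windows of the same length, 12.4% hold the TATA box letters and 9.57% the C/EBP core. Mt1 holds 1 metal response core and Mt2 holds 5, none overlapping another. At least 1 is found in 44.4% of the windows and at least 5 in 0.344%. A match describes the letters and is no evidence of binding. Sequence outside the windows, such as that after the start site used, was not searched. The counts for Mt1 and Mt2 thus hold for these windows alone and do not rank the genes. The RefSeq start sites can differ from the gene spans printed further on. The Lcn2 window lies inside the span printed for that gene, and the S100a8 window overlaps the start of its span.

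S100a8 (ENSMUSG00000056054, chromosome 3, 90668978 to 90670035) stood at 38.0 FPKM in control, 149.7 in susceptible, 0.771 in AAV-GFP and 1.74 in AAV-CDYL. Control was 49.1-fold above AAV-GFP, and both social defeat libraries lay above both AAV libraries. S100a9 (ENSMUSG00000056071, chromosome 3, 90692632 to 90695721) stood at 35.5, 133, 0.172 and 1.09 in the same order, 206-fold higher in control than in AAV-GFP. The AAV-GFP values rest on about 9 fragments for S100a8 and 2 for S100a9, against about 272 and 264 in control, so the size of these folds is imprecise.

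Lcn2 (ENSMUSG00000026822, chromosome 2, 32384633 to 32388252) stood at 8.27, 44.4, 0.277 and 8.48. Here AAV-GFP alone was low, 29.7-fold below control, and AAV-CDYL lay at the control level. Ltf, lactoferrin, stood at 1.295, 13.2, 0.520 and 0.0313. Chil3, a chitinase-like protein of myeloid cells, stood at 0.971 and 9.50 in the social defeat pair and at 0.0323 and 0.547 in the AAV pair. Cd177, a surface protein of neutrophils, stood at 0.530 and 1.66, was listed at 0 in AAV-GFP, and stood at 0.0158 in AAV-CDYL. Mmp8, neutrophil collagenase, stood at 0.504 and 2.07, was listed at 0 in AAV-GFP, and stood at 0.0354 in AAV-CDYL. All 4 of these genes lay at 1.295 FPKM or less in control, with susceptible the highest library.

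A list of 20 neutrophil genes was drawn up after these values were seen. Of these, 15 were joined, 13 had a lower value in AAV-GFP than in control, where 43.4% of all joined genes did. In 10 both AAV libraries lay below both social defeat libraries, a pattern found in 5.0% of all joined genes. Only S100a8, S100a9, Lcn2 and Ltf reached 1 FPKM in either library, each through control alone, so their direction follows from the floor and is no support. Ngp and Retnlg, at 3.27 and 3.09 FPKM in control, are not in the AAV table, so no difference can be given. Csf3r, the receptor for granulocyte colony-stimulating factor, went the other way at 0.578 in control and 0.935 in AAV-GFP. The erythroid gene Alas2 stood at 1.16 in control and 1.501 in AAV-GFP, and the haemoglobin genes are not joined. The part of blood in the tissue in these differences was not tested.

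**Figure D3:**
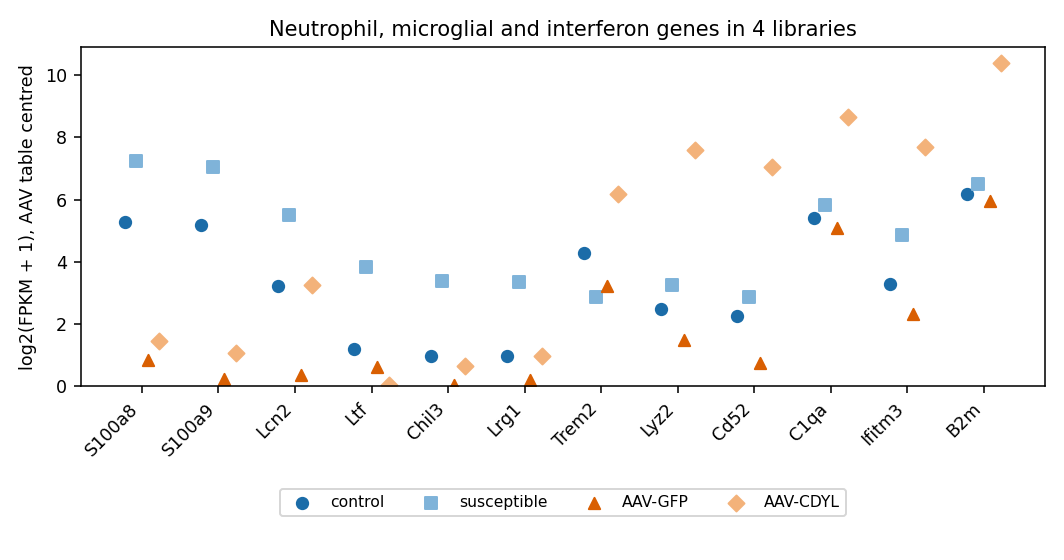
Points give log2(FPKM + 1) (y axis) of 12 genes (x axis) in the 4 libraries, with the AAV table centred. For S100a8 and S100a9 the circle and square of the social defeat libraries lie above both AAV symbols, while for Lyz2, Cd52 and Ifitm3 the AAV-GFP triangle is lowest and AAV-CDYL highest.

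Microglial and myeloid genes were mixed, with a few values lower in AAV-GFP by the size rule. Of 22 microglia and macrophage markers 17 were joined and 15 passed the floor. By the size rule 1 was higher and 3 lower, beside 6.34% higher and 6.54% lower over all 3091 genes. The median of the 15 was -0.13, beside 0.020 over all 3091. Trem2, a lipid-sensing receptor of microglia (chromosome 17, 48346401 to 48354147), stood at 18.4 in control, 6.28 in susceptible, 8.33 in AAV-GFP and 70.7 in AAV-CDYL. AAV-GFP and susceptible were thus both well below control for this gene. Lyz2, lysozyme of macrophages and neutrophils, stood at 4.63, 8.47, 1.77 and 190.6, lowest in AAV-GFP. Siglech, a microglial sialic-acid receptor, stood at 9.64, 4.77, 6.06 and 23.9, a difference of -0.59 that lies at the edge of the rule.

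Over the 15 genes 4 lay above and 11 below 0, beside 47.4% below 0 over all genes tested. Other microglial markers did not pass the rule: P2ry12 stood at 25.4 in control and 23.4 in AAV-GFP, Tmem119 at 9.72 and 9.97, and Cx3cr1, the fractalkine receptor, at 12.5 and 13.8. Complement gene C1qa stood at 41.0 and 32.6. Gpr34, a lysophospholipid receptor of microglia in a locus shared with another gene, was the marker that was higher, at 3.46 and 5.69, also at the edge of the rule (0.59). Cd52, a leukocyte surface glycoprotein in a shared locus, stood at 3.76, 6.31, 0.681 and 130.5, or 5.51-fold lower in AAV-GFP than in control. Between these 2 libraries Cd52 reached 1 FPKM through control alone, so its direction follows from the floor and is no support. Its values rest on about 28 fragments in control and 8 in AAV-GFP.

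Interferon-induced and antigen presentation genes showed no common direction. Of 35 interferon-stimulated genes 25 were joined and 11 passed the floor, 1 higher and 2 lower, with a median of -0.015. Among all genes tested 6.34% were higher and 6.54% lower. Ifit3, an antiviral protein induced by interferon, stood at 2.55 in control and 2.50 in AAV-GFP. Isg15, a ubiquitin-like protein, was the gene that was higher, at 0.268 and 1.44, and Ifi27l2a (1.71 and 0.216) and Ifitm3 (8.79 and 3.95), a membrane restriction factor, were the lower ones. Isg15 and Ifi27l2a rest on few fragments, about 3 and 25 for the first and 11 and 2 for the second. Each reached 1 FPKM in 1 of these libraries alone, so its direction follows from the floor. With a floor of 5 FPKM the median became -0.39.

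Of 9 antigen presentation genes above the floor none passed the size rule (median -0.17), beside 12.9% of all genes tested. B2m, the light chain of class I molecules, stood at 71.6 in control and 61.1 in AAV-GFP, while AAV-CDYL reached 1325. Among 11 inflammatory mediators above the floor, Lcn2 alone passed (median -0.019). Serpina3n, a protease inhibitor of reactive astrocytes, stood at 5.27 and 6.94. Igkc, the immunoglobulin kappa constant region, was listed at 0 in both reference libraries. Ighm, the mu constant region, stood at 5.92 in control and 9.49 in AAV-GFP.

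Of 19 astrocyte markers 7 were joined, and Gjb6 and Gfap were higher in AAV-GFP by the size rule, as were 6.34% of all genes tested. The 7 had centred differences above 0, although the smallest change sign under other centrings. Their median was 0.19, beside 0.020 over all genes tested and 0.12 over genes with both partners above. Gfap, the astrocyte filament protein, stood at 2.92 in control, 31.0 in susceptible, 5.85 in AAV-GFP and 386 in AAV-CDYL, in a locus shared with other listed genes. Gjb6, connexin 30 of astrocyte gap junctions (chromosome 14, 57123303 to 57133611), stood at 17.4, 63.0, 44.7 and 19.5. Its AAV-GFP and susceptible values were high, and its control and AAV-CDYL values low, so AAV-CDYL lay near the control level. Aqp4, the water channel of astrocyte endfeet, stood at 9.87 and 10.1 in the reference libraries. Vim, an intermediate filament raised in scars, stood at 6.69 and 7.002. In the reactive astrocyte and scar list, 1 of 12 was higher and 1 lower, with a median of 0.020.

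Myelin genes were nearly level between the reference libraries. None of 20 oligodendrocyte and myelin genes passed the size rule (median 0.12), beside 12.9% of all genes tested. Among genes with both partners above, 9.68% passed and the median was also 0.12. Mobp, a protein of compact myelin, stood at 60.9 in control and 60.6 in AAV-GFP, against 303 in susceptible and 285 in AAV-CDYL. For Mal, a proteolipid of myelin, control had 23.4 and AAV-GFP 23.3, and Mbp, myelin basic protein, gave 319.9 and 333. Hapln2, a link protein of nodes of Ranvier, lay farthest below at 1.99 and 1.28, and Gpr37, a receptor of maturing oligodendrocytes, farthest above at 3.12 and 4.57.

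**Figure D4:**
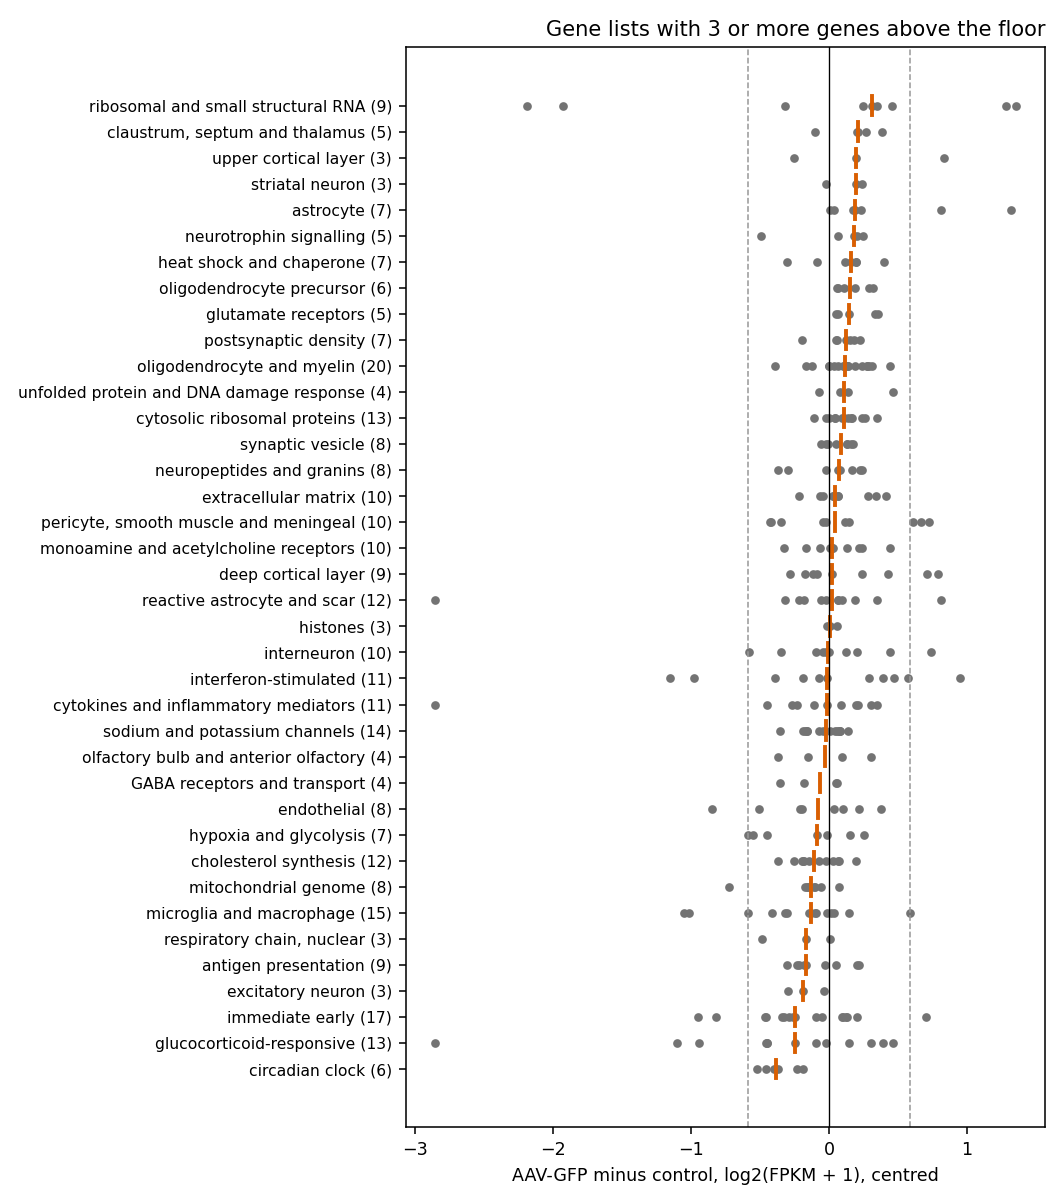
Each grey point is a gene above the floor and each orange bar the median of its list, by the centred AAV-GFP minus control difference in log2(FPKM + 1) (x axis); dashed lines mark 1.5-fold and numbers give genes a list. The list of blood cells is left out because of its scale, as are lists with under 3 genes above the floor, and the medians shown run from -0.38 for clock genes to 0.31 for structural RNAs.

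Vessel and border genes differed for single members. Of 8 endothelial genes 1 was lower: Ly6a, a surface antigen of endothelium and leukocytes, at 20.1, 59.6, 10.7 and 83.3. Vwf, von Willebrand factor, stood at 3.98 in control and 2.48 in AAV-GFP, and Cldn5, the claudin of the blood-brain barrier, at 23.02 and 26.8. Of 10 pericyte, smooth muscle and meningeal genes 3 were higher, all low in control: Bgn (2.08 and 3.67), Dcn (0.281 and 1.03) and Tagln (0.838 and 2.03). They encode the matrix proteoglycans biglycan and decorin and an actin-binding protein of smooth muscle. Dcn and Tagln reached 1 FPKM through AAV-GFP alone, so their direction follows from the floor and is no support. Over all genes tested 6.34% were higher and 6.54% lower. Ptgds, a prostaglandin synthase of the meninges, lay below at 125 and 92.3, without passing the rule.

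Neuronal and synaptic lists showed few differences. The size rule was passed by 12.9% of all genes tested, but by 4.87% of genes with both partners below. In the class of longest transcripts, 5.48 kb or more, it was passed by 1.55%. The lists named next had medians below 0 in both partner comparisons, so few calls set them little apart from such genes. None of 14 sodium and potassium channel genes (median -0.021), 5 glutamate receptors (0.14), 4 GABA genes (-0.065), 8 synaptic vesicle genes (0.088) and 7 postsynaptic density genes (0.12) passed the size rule. Dlgap3, a postsynaptic scaffold, stood at 103 and 116, and Syt1, the vesicle calcium sensor, at 617 and 591. Of 12 excitatory neuron markers 3 were joined. Among them Nrgn, neurogranin, stood at 870 and 761, and Neurod6, a transcription factor of cortical excitatory neurons, at 87.1 and 84.7. Ttr, the choroid plexus transthyretin gene, was listed at 0 in both.

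Among cortical markers 1 of 3 upper-layer, 2 of 9 deep-layer and 1 of 10 interneuron genes were higher and 0 lower, beside 6.34% higher over all genes tested. Cux2, of upper layers, stood at 9.45 in control, 18.6 in susceptible, 17.5 in AAV-GFP and 11.5 in AAV-CDYL. In deep layers Ctgf, a marker of the deepest layer in a shared locus, stood at 4.74 and 8.36, and Cplx3, a complexin of the same layer, at 0.556 and 1.68. Cplx3 reached 1 FPKM through AAV-GFP alone, so its direction follows from the floor. Dlx6, a transcription factor of interneurons in a shared locus, stood at 2.72 and 5.18. Pvalb, parvalbumin of fast-spiking interneurons, fell just short of the rule at 33.1 and 21.7 (difference -0.58). None of 3 striatal markers passed; Penk, proenkephalin, stood at 5.93 and 7.14.

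Metallothionein genes were lowest in AAV-GFP of all 4 libraries. Mt1 (ENSMUSG00000031765 in the same cluster as Mt2, chromosome 8, 94179089 to 94180325) stood at 485 in control, 672 in susceptible, 251 in AAV-GFP and 479 in AAV-CDYL. Mt2 (ENSMUSG00000031762, chromosome 8, 94172618 to 94173567) stood at 226, 381, 104 and 318. Control was 1.92-fold and 2.15-fold above AAV-GFP for the 2 genes. Both belong to the glucocorticoid-responsive list, which has 13 genes above the floor and a median difference of -0.25. The size rule put 3 of them lower and 0 higher, beside 6.54% lower and 6.34% higher over all genes tested. The third was Lcn2. Fkbp5, a chaperone of the glucocorticoid receptor, stood at 11.8, 35.02, 9.73 and 13.3, and Ddit4, a stress-induced inhibitor of growth signalling, at 22.8, 47.1, 16.4 and 27.5. Neither passed the rule between the reference libraries.

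Clock and activity-dependent genes gave few calls between the reference libraries. All 6 clock genes above the floor had a lower value (median -0.38), as did 47.4% of all genes tested, but none passed the size rule. Hlf, a clock output factor, stood at 62.5 in control and 43.1 in AAV-GFP, Dbp, of the same family, at 38.5 and 29.5, and Per1 at 31.7 and 22.7. The time of day at dissection is not given in the sources used here, and its part was not tested. Of 17 immediate early genes 2 were lower and 1 higher by the rule, and 6 lay above and 11 below 0 (median -0.25). For all genes tested the shares were 6.54% lower and 6.34% higher by the rule.

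Arc, a synaptic regulator, stood at 76.2 in control, 21.2 in susceptible, 42.5 in AAV-GFP and 26.8 in AAV-CDYL. Egr2, a zinc finger factor, stood at 6.15, 0.787, 2.69 and 1.34. For both genes control was at least 1.5-fold above each of the other libraries, with AAV-GFP next. Egr3, a factor of the same family, went the other way at 40.7, 29.5, 66.7 and 19.3, with AAV-GFP alone high. Fosb stood at 10.1 and 10.8 and Homer1 at 101 and 109 in the reference libraries.

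**Figure D5:**
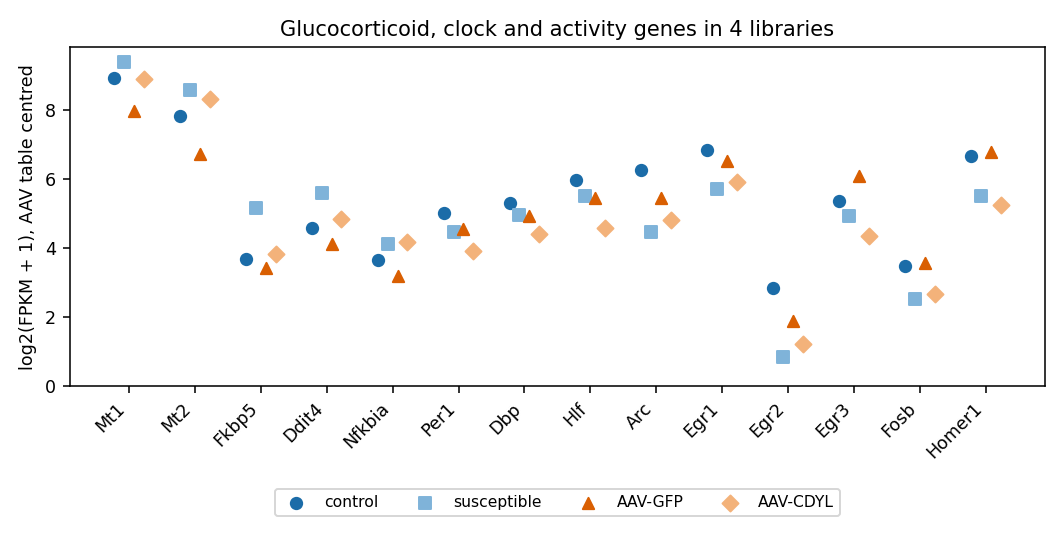
Points give log2(FPKM + 1) (y axis) of 14 glucocorticoid, clock and activity genes (x axis) in the 4 libraries, with the AAV table centred. The AAV-GFP triangle is lowest for Mt1 and Mt2 and highest for Egr3, while the control circle is highest for Arc and Egr2.

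The genes at the centre of the study differed by less than the size rule asks between the reference libraries. Cdyl (chromosome 13, 35659862 to 35874064) was listed at 1.98 FPKM in control, 2.54 in susceptible, 2.68 in AAV-GFP and 1052 in AAV-CDYL, the library meant to overexpress it. For Cdyl the reference libraries differed by 0.31, a ratio of 1.36, against 0.25 between susceptible and control. Its paralog Cdyl2 stood at 7.56 and 8.99. Vgf, a secreted neuropeptide precursor (chromosome 5, 137026392 to 137033351), stood at 177 and 184, with 127 in susceptible and 124 in AAV-CDYL. Bdnf, a neurotrophin, stood at 10.8 and 12.5. None passed the size rule. Scn8a and Rhoa are not in both tables.

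Each table gives a partner library, so a difference can be set beside all 4 libraries. The listing rule keeps only genes apart within both pairs. A gene with AAV-GFP or control alone different, and the other libraries alike, is thus not listed. The counts that follow are shaped by that rule and cannot assign a difference to a library. Over 4025 genes at 1 FPKM or more in any library, control lay at least 1.5-fold above each of the other 3 for 56 genes (1.39%) and below for 88 (2.19%). AAV-GFP lay above the other 3 for 28 genes (0.696%) and below for 65 (1.61%). Named genes with control alone high include Stxbp6, a syntaxin-binding protein in a shared locus (104, 36.6, 45.5 and 24.9), Ttf1, a transcription termination factor (15.6, 2.38, 2.48 and 5.59) and Anks1b, a postsynaptic scaffold (476, 215, 250 and 177). Pde6h, a cone phosphodiesterase subunit in a shared locus, stood at 76.8 in control and below 0.03 FPKM in each of the others.

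With AAV-GFP alone low, several genes of myeloid or acute-phase background appear beside Mt1, Mt2, Lyz2 and Lcn2. Fcer1g, a signalling chain of immune receptors, stood at 12.8 in control, 16.2 in susceptible, 7.38 in AAV-GFP and 77.0 in AAV-CDYL. Tspo, a mitochondrial protein raised in activated microglia, stood at 5.39, 11.3, 3.05 and 48.8. Ifitm1, a relative of Ifitm3, stood at 4.94, 10.1, 2.56 and 6.01. S100a11, a calcium-binding protein, stood at 7.08, 15.9, 3.97 and 31.5. For these 4 genes both partner libraries lie above their own reference, and AAV-GFP is the lower reference. They were picked after their values were seen, and other immune genes lay the opposite way. Control alone was low for Laptm5 (9.31, 16.5, 16.0 and 84.2) and for the interferon-stimulated Isg15 (0.268, 3.03, 1.44 and 96.8), among others.

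With AAV-GFP alone high were the signal recognition particle RNA copies Rn7s1 (139, 76.7, 356 and 188) and Rn7s2 (148, 60.3, 360 and 170), which are near-identical and share reads. Stard13, a protein with a lipid transfer domain, in a shared locus, stood at 1.47, 2.32, 8.31 and 2.27, and Slc15a4, a lysosomal histidine transporter in a shared locus, at 10.97, 7.53, 27.8 and 12.4. Nkain2, a partner of the sodium pump, was highest in AAV-GFP but near susceptible, at 29.9, 48.1, 61.9 and 19.8. Control alone was low for the replication histone genes Hist1h2ap (4.03, 10.8, 13.8 and 34.8) and Hist1h2ao (3.76, 9.76, 9.13 and 18.3), whose sequences are close copies.

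Few of the joined genes separated the experiments as a whole. Genes alike within a pair are not listed, even where the experiments differ, so the listing rule limits these counts. In 12 genes (0.298% of 4025) both AAV libraries lay at least 1.5-fold above both social defeat libraries, and in 8 (0.199%) below. S100a8, S100a9, Ltf and Cd177 are among the 8. The others with a gene name in that direction included Tyw3, an enzyme of transfer RNA modification, at 8.96 and 7.10 in the social defeat pair and 4.24 and 2.56 in the AAV pair. Above were Gpr34 and Ighm, Pdzph1 (0.983 and 1.54, then 3.51 and 4.46), Baiap2l2 (0.748 and 0.372, then 2.42 and 3.07) and Cox7a1, a subunit of cytochrome oxidase (1.62 and 1.27, then 3.09 and 5.39). With a floor of 1 FPKM in all 4 libraries the counts were 3 and 1.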

How the data were processed

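RNA from prelimbic cortex was sequenced in 4 libraries, 1 per group. The authors deposited FPKM values, 1 table per pair, made with Cuffdiff on mm10 per the submitters' processing notes; for aligner, annotation and versions, nothing is given in the sources used here. The susceptible column was assigned through the sample title, from which its spelling differs by a letter.

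Tables were joined on the gene identifier and scaled to each other by the median described in the results, so levels set across them rest on that centring. Differences are in log2(FPKM + 1), which makes those of low genes look smaller; folds are ratios of centred FPKM. Depth was estimated from low values of single-transcript genes of 3 to 20 kb (GENCODE M21): 93.3% or more, in each library, of values up to 4.5 steps lay within 0.15 of a whole step. Fragment numbers per gene use the longest transcript and are approximate. Of the genes tested, 37.0% lie in a shared Cuffdiff locus; fragments of these, of near-identical copies and of antisense pairs cannot be assigned with certainty. The procedure was run on simulated data that held counting error and set 2-fold changes, but not the listing rule or variation between samples.

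Members and gene lists were chosen with earlier results of these data known. Named genes are the study's own, in each direction the 12 farthest from 0 with a mean of 2 FPKM or more, up to 4 per list plus its first member, the 5 highest listed at 0 in the other library, and the 8 largest gaps between experiments; not all are printed. Anks1b, Aqp4, C1qa, Fosb, Homer1, Ifit3, Laptm5, Mal, Mobp, P2ry12, Ptgds, Tmem119, the neutrophil list and the genes with AAV-GFP alone low were chosen after their values were seen. Upstream sequences are RefSeq's (GRCm38.p6). Alternatives to the pseudocount, floor, fold and centring, and leaving out shared loci, are in the closing section. Python 3.11.15 was used, with pandas 2.3.3 and numpy 2.4.6.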

Additional observations from a re-analysis of the deposited data

How the results depend on the processing

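Centring shifted all differences by at most 0.12: without it, or with medians over genes at 1 or 20 FPKM or more, upper quartile scaling, or genes higher or lower in both partner libraries, the centre stayed between -0.04 and 0.12. The higher count then ran from 149 to 213 and the lower from 185 to 264, and the count of genes with both AAV libraries above became 7 with genes higher in both partners. The floor, the pseudocount and the fold set the counts, which are given as higher, lower, both AAV above and both AAV below, against 196, 202, 12 and 8. They were 301, 306, 42 and 22 with a pseudocount of 0.1, and the last pair 26 and 15 with 0.5. They were 106, 117, 3 and 1 with a floor of 1 FPKM in both libraries, and 79, 92, 5 and 5 with a floor of 5 FPKM. A 2-fold rule gave 72, 71, 3 and 3. Without genes in shared loci they were 106, 125, 7 and 5, from fewer genes tested. With protein-coding genes only, chosen after seeing the data, the first 3 were 103, 132 and 7. Over all alternatives 112 values of named genes and 4 list medians crossed the size rule or moved by a log2 difference of 0.32 or more; of the genes, 39 did so with a pseudocount of 0.1 and 11 with centring on genes higher in both partners. No paired analysis was possible because each group has 1 library, and none can be left out. Genes at a few fragments in 1 library, such as S100a9, have imprecise folds.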

Other observations

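Some genes were listed at 0 in a reference library. Of 23 genes listed at 0 in control and at 1 FPKM or more in AAV-GFP, 15 were pseudogenes, and all 23 had a value above 0 in the susceptible library, which the listing rule requires. The highest were the processed pseudogenes Gm14567, at 88.2 in susceptible, 226 in AAV-GFP and 179 in AAV-CDYL, and Gm43110, at 41.3, 93.0 and 29.6. In the other direction 8 genes were listed at 0 in AAV-GFP and at 1 FPKM or more in control, 4 of them pseudogenes. Rpph1, the RNA of ribonuclease P, was among them, at 2.80 in control, 1.504 in susceptible and 59.6 in AAV-CDYL.

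Other groups also held few calls between the reference libraries, beside 12.9% of all genes tested. The share was 9.68% among genes with both partners above and 4.87% among those with both below. None of 13 cytosolic ribosomal protein genes passed the size rule (median 0.11), such as Rps19, a small-subunit protein, at 237 in control and 278 in AAV-GFP, while susceptible stood at 325 and AAV-CDYL at 467. None of 12 cholesterol synthesis genes passed (median -0.11). Hmgcs1, an early enzyme of that pathway, stood at 131 and 133, against 79.3 and 66.7 in the partner libraries. Of 8 genes of the mitochondrial genome only mt-Atp8, in a shared locus, passed, at 18201 in control and 10950 in AAV-GFP. Xist, the X-inactivation RNA, was at or near 0 in all 4 libraries.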
